A study of Mus musculus with 64 samples.

Results

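The 10 genes described here are heat shock genes and cold-inducible RNA genes, read as rows of a gene count table of mouse microglia. They were chosen by name, and all 10 were found among the 49671 genes of the table. Hspa1a and Hspa1b encode the stress-inducible cytosolic HSP70 proteins, Hspa8 the constitutive HSP70 (HSC70), and Hspa5 the HSP70 of the endoplasmic reticulum (BiP). Hsp90aa1 and Hsp90ab1 encode the inducible and the constitutive cytosolic HSP90. Dnajb1 encodes an HSP40 co-chaperone, and Hsph1 encodes HSP110, which exchanges the nucleotide of HSP70. Cirbp and Rbm3 encode RNA-binding proteins whose transcripts rise when cells are cooled mildly. All 10 genes passed the count filter in both regions.

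Microglia, the resident macrophages of the brain, came from hippocampus and frontal cortex of adult C57BL/6 males (substrain N by the study's methods) and had been captured with magnetic beads against CD11b, a surface protein that other myeloid cells also carry. No transgene or agent is given for any group, and all animals of the microglia experiment were kept on a reversed light cycle and collected in the light or the dark phase. By their labels the 64 libraries of total RNA fell into 16 groups of 4, one for each region, phase (Day, Night) and condition (Ctr0, Ctr1, Cogn, Soci). What the condition names mean, and which light phase is called Day, the labels do not say. Below, day and night therefore refer to these labels only, and not to light or dark. The labels also do not say that replicates came from separate animals, so p-values measure the spread between these libraries, which may be technical.

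Heat shock proteins hold unfolded proteins in a soluble state and pass them on for folding. Their genes are switched on by the transcription factor HSF1, which binds heat shock elements in promoters when unfolded protein accumulates or temperature rises. The daily rhythm of body temperature is a known input to HSF1 and, in the opposite sense, to Cirbp and Rbm3. Heat shock genes are also among the genes that cell isolation can induce, and here the tissue had been dissociated mechanically in the cold.

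Promoter sequences were taken from RefSeq (build GRCm38.p6) for the 6 genes that had an entry, which were Hspa1a, Hspa1b, Hspa5, Hsph1, Dnajb1 and Cirbp. Hspa8, Hsp90aa1, Hsp90ab1 and Rbm3 had none. Gene positions are from GENCODE M21 on GRCm38, whose patch releases keep the chromosome coordinates. The 250 bases before the transcription start are shown 5′ to 3′ on the strand of the gene for the genes whose levels are compared below. Capitals mark matches to 5 motifs searched on both strands: the heat shock element of 3 units (GAANNTTCNNGAA or TTCNNGAANNTTC), its 2-unit form (GAANNTTC or TTCNNGAA), which each 3-unit match also contains, the E-box of clock factors (CACGTG), the mild cold response element described for Cirbp (TCCCCGCC), and the endoplasmic reticulum stress element (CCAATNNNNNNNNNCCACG).

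The inducible HSP70 pair is shown because their upstream sequences are nearly the same while their day-night changes were of different size. Hspa1b lay on the minus strand at chr17:34956436-34959238 and its upstream sequence at chr17:34959239-34959488. Hspa1a lay on the minus strand at chr17:34969190-34972156 and its upstream sequence at chr17:34972157-34972406.
Hspa1b: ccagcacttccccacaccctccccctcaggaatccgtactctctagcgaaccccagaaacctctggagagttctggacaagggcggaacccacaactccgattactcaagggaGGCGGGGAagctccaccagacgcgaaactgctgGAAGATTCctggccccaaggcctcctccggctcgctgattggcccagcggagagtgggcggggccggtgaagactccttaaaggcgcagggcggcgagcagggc
Hspa1a: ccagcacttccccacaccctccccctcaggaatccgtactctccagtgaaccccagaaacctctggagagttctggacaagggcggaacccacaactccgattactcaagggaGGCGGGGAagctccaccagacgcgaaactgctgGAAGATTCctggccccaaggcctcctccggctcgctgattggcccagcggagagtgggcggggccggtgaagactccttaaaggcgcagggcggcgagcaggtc

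Over these 250 bases the pair differed at 3 positions and was 98.8% identical. Counted from 1 at the 5′ end, with the base of Hspa1b first, the differences were T44C, C47T and G249T. Both sequences held one 2-unit heat shock element, GAAGATTC, at −104 to −97, and one mild cold response element on the other strand at −137 to −130. The 2-unit element was present in 15.1% of the 32851 RefSeq mouse windows, each reaching from 250 bases before a start to 50 bases after it, and the mild cold response element in 5.38%.

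The sequence of Hsph1 is shown because it held the only 3-unit heat shock element found among the 6 genes with an entry. The gene lay on the minus strand at chr5:149614287-149636376, and the bases before the more upstream of its 2 RefSeq starts at chr5:149636337-149636586.
Hsph1: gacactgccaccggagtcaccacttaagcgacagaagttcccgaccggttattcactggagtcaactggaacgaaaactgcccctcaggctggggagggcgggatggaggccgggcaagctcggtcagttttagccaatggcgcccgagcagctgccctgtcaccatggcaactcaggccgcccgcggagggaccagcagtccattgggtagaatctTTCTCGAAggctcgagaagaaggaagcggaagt
The 3-unit element lay after that start, at +37 to +49, within the following 22 bases at chr5:149636287-149636308.
Hsph1 element: gctgcagaTTCTGGAAAGTTCt

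The 3-unit element was present in 0.603% of the windows. An E-box, present in 7.15% of the windows, lay at +3 to +8 from the same start. A second, 2-unit element of Hsph1 lay at −33 to −26.

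Hspa5 and Cirbp are shown as the gene of another chaperone compartment and as the gene that fell in the day libraries. Hspa5 lay on the plus strand at chr2:34771970-34777547, with its upstream sequence at chr2:34771840-34772089. Cirbp lay on the plus strand at chr10:80165985-80172786, and the upstream sequence of the first of its 2 RefSeq starts at chr10:80167589-80167838.
Hspa5: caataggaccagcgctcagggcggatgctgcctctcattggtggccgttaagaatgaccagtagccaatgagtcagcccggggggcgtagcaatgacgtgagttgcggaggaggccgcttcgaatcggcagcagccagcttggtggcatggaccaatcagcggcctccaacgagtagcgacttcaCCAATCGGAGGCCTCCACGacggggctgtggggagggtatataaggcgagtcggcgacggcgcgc
Cirbp: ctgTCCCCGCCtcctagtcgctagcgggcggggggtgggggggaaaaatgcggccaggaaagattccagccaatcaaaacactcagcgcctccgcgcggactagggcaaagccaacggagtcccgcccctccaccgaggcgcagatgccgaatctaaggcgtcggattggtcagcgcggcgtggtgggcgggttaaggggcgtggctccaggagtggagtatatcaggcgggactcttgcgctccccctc

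Hspa5 held the endoplasmic reticulum stress element at −65 to −47, which was present in 0.119% of the windows. Cirbp held the mild cold response element at −247 to −240. In Dnajb1, at chr8:83608193-83612653 on the plus strand, neither form of the heat shock element matched in the windows of its 2 RefSeq starts. The window of the more downstream start held the mild cold response element on the other strand, at +35 to +42. A match is a description of letters only, and a missing match says only that these letters were absent from the window.

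Library totals ran from 10.2 to 84.5 M with a median of 15.9 M, and the 3 deepest libraries were hippocampal libraries of replicate number 4. Levels are given as CPM, the count relative to the library total scaled by TMM. The floor of 3 counts stood for 0.0310 to 0.313 CPM. Hspa1a had 4 to 144 counts per library and Hspa1b 5 to 263, so single values of this pair carry a large counting error. Every other gene had at least 141 counts in every library. Of the 96 pairs of replicates, none differed by as little as sampling noise (lowest chi-square per degree of freedom 8.26). Counts of several members are uncertain for another reason, since the authors' treatment of reads with several matching positions is not stated. Of the 150-base windows of Hspa1b, 40.5% occurred letter for letter in Hspa1a, and of those of Hspa1a 38.1% occurred in Hspa1b. For Hsp90aa1, 28.5% of windows occurred in other annotated genes, mostly Gm12346, and for Hspa8 22.8%, mostly Gm15459. Hspa1a also overlapped Gm20481 and Rbm3 overlapped Rbm3os, both on the opposite strand.

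Clock genes differed between the phase labels, while which light phase is called Day was not tested with them. Cry1 was 2.45-fold and Per2 2.17-fold higher in day than in night libraries of the hippocampus, and in the frontal cortex the values were 2.39-fold and 2.42-fold. Nr1d1 and Arntl were lower in day libraries, with log2 changes of −1.87 and −0.54 in hippocampus and −1.84 and −0.64 in frontal cortex (edgeR adjusted p at most 6.82e-06 for the 4 genes in both regions). Markers of microglia had summed levels of 12320 to 25510 CPM over all libraries, against 63.8 to 262 CPM for neurons. Other lists reached higher sums, with 283 to 2452 CPM for astrocytes, 227 to 1884 CPM for endothelial cells and 696 to 1614 CPM for border macrophages. Most of the border macrophage sum came from Stab1, whose means by region and phase were 708 to 951 CPM. The next marker of that list, Mrc1, had means of 93.3 to 198 CPM. Choroid plexus markers had 1.74 to 2942 CPM, oligodendrocyte markers 110 to 519 CPM, and neutrophil and monocyte markers 10.5 to 137 CPM. None of the marker lists had a gene at 0 in every library of a region. In bulk samples, fewer cells of a type and less RNA per cell cannot be told apart.

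The first comparison asked whether the genes followed the phase, with 16 day against 16 night libraries in each region. All 8 chaperone genes were higher in day libraries in both regions, and both cold-inducible genes were lower. The changes ran from a 3.86-fold rise of Hspa1b to a fall of Cirbp by 0.81 on the log2 scale in hippocampus, and from a 3.60-fold rise of Hspa1b to a fall of Cirbp by 0.88 in frontal cortex. All 10 genes passed an adjusted p of 0.05 in both regions by the quasi-likelihood test of edgeR. That threshold was passed upward by 23.4% and downward by 18.8% of all genes tested in hippocampus, and by 20.6% and 21.3% in frontal cortex, so a call alone is common in these data.

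**Figure D1:**
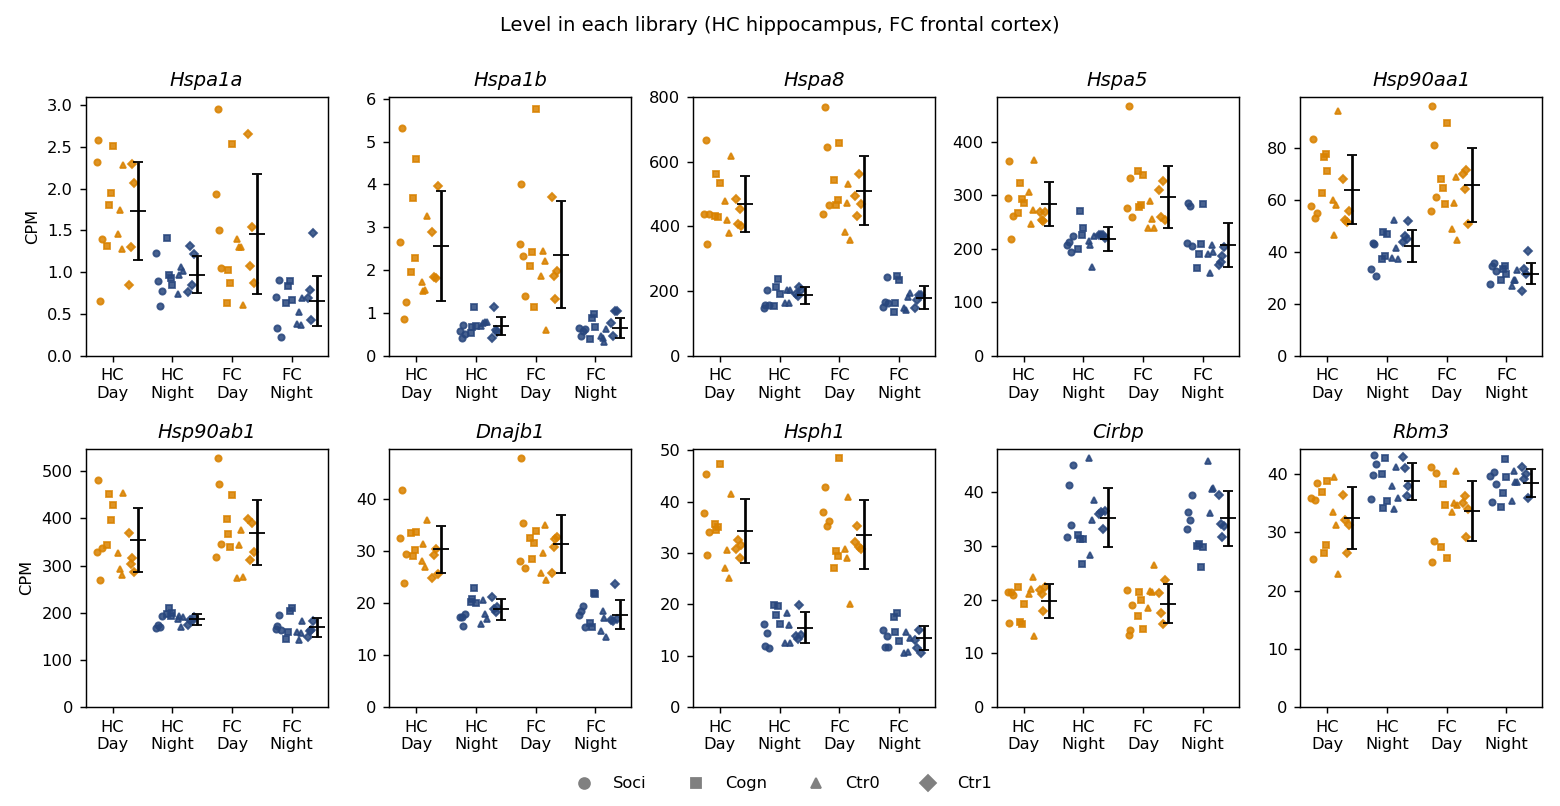
Level of each gene in CPM in each of the 64 libraries (y axis, linear, from 0), by region and phase, with the marker shape giving the condition, orange the day and blue the night libraries, and the black bar the mean ± SD of 16 libraries. Day and night libraries of Hspa8, Hsp90ab1, Dnajb1 and Hsph1 are apart in both regions, while those of Hspa1a, Hspa5 and Rbm3 overlap.

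Hspa8, the constitutive HSP70 that also uncoats clathrin vesicles, ran from 346 CPM through a median of 439 to 667 CPM in hippocampal day libraries, and from 149 through 190 to 237 CPM in night libraries. In frontal cortex it ran from 357 through 478 to 769 CPM by day and from 135 through 168 to 247 CPM by night. The lowest day library lay above the highest night library in both regions. The fold change was 2.56 in hippocampus (log2 change 1.36, SE 0.08, adjusted p = 7.21e-14) and 2.83 in frontal cortex (1.503, SE 0.10, adjusted p = 2.22e-12). Hspa8 had the lowest adjusted p of the 10 genes in each region.

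Hspa1b ran from 0.848 through 2.11 to 5.33 CPM in hippocampal day libraries and from 0.406 through 0.675 to 1.13 CPM in night libraries. In frontal cortex the day libraries ran from 0.608 through 2.15 to 5.77 CPM and the night libraries from 0.308 through 0.616 to 1.05 CPM. In each region 15 of 16 day libraries lay above every night library. The fold change was 3.86 in hippocampus (log2 change 1.95, SE 0.21, adjusted p = 1.31e-08) and 3.60 in frontal cortex (1.85, SE 0.23, adjusted p = 3.21e-07). These were the largest changes of the 10 genes in each region.

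Hspa1a rose less than its neighbour. It ran from 0.652 through 1.77 to 2.58 CPM by day and from 0.600 through 0.943 to 1.41 CPM by night in hippocampus, and from 0.608 through 1.30 to 2.96 CPM and 0.223 through 0.680 to 1.47 CPM in frontal cortex. Day and night libraries overlapped, and 10 of 16 hippocampal and 6 of 16 cortical day libraries lay above every night library. The fold change was 1.86 in hippocampus (log2 change 0.89, SE 0.16, adjusted p = 2.36e-05) and 2.18 in frontal cortex (1.13, SE 0.23, adjusted p = 0.000259). Within a library, the log2 ratio of Hspa1b to Hspa1a counts, which needs no scaling, was 0.48 ± 0.54 by day and −0.51 ± 0.47 by night in hippocampus (SD, n = 16 each), a difference of 0.99 (permutation test with 100000 resamples, 2-sided, p = 1e-05, the smallest they can give, adjusted p = 2e-05). In frontal cortex it was 0.66 ± 0.48 by day and 0.02 ± 0.60 by night, a difference of 0.64 (adjusted p = 0.00245). This ratio was chosen after the values were seen, and the counts behind it were 814 and 525 over the hippocampal day libraries, 271 and 379 over the night libraries, 496 and 311 over the cortical day libraries and 172 and 175 over the night libraries. The part of reads matching both genes in this ratio was not tested.

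Both HSP90 genes rose by day. Hsp90ab1, the constitutive form, ran from 269 through 334 to 482 CPM by day and from 167 through 189 to 209 CPM by night in hippocampus. In frontal cortex it ran from 274 through 356 to 528 CPM by day and from 142 through 164 to 209 CPM by night, and the libraries did not overlap in either region. Its log2 change was 0.96 (SE 0.07, adjusted p = 1.13e-11) in hippocampus and 1.11 (SE 0.08, adjusted p = 5.13e-12) in frontal cortex. Hsp90aa1, the inducible form, ran from 46.4 through 58.9 to 94.5 CPM by day and from 30.8 through 43.3 to 52.4 CPM by night in hippocampus, where 14 of 16 day libraries lay above every night library. In frontal cortex it ran from 44.7 through 64.5 to 96.1 CPM by day and from 24.9 through 32.03 to 40.5 CPM by night, with no overlap. Its log2 change was 0.63 (SE 0.09, adjusted p = 7.43e-07) in hippocampus and 1.04 (SE 0.09, adjusted p = 1.51e-10) in frontal cortex.

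The co-chaperones of HSP70 moved with it. Hsph1, whose window held the 3-unit heat shock element printed above, ran from 25.2 through 33.3 to 47.3 CPM by day and from 11.4 through 15.2 to 19.99 CPM by night in hippocampus, and from 20.02 through 31.7 to 48.4 CPM and 10.5 through 13.2 to 18.3 CPM in frontal cortex. Its fold change was 2.26 (log2 change 1.18, SE 0.09, adjusted p = 3.09e-11) and 2.48 (1.31, SE 0.10, adjusted p = 1.96e-11). Dnajb1 ran from 23.9 through 29.7 to 41.6 CPM by day and from 15.7 through 18.6 to 22.8 CPM by night in hippocampus, and from 24.5 through 31.2 to 47.9 CPM and 13.5 through 17.0 to 23.6 CPM in frontal cortex. Its fold change was 1.65 (log2 change 0.72, SE 0.06, adjusted p = 5.34e-10) and 1.75 (0.81, SE 0.08, adjusted p = 6.24e-09). The day libraries of both genes lay above the night libraries in both regions.

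Hspa5, the chaperone of the endoplasmic reticulum, had the smallest change of the 8 chaperone genes. It ran from 217 through 270 to 366 CPM by day and from 166 through 221 to 270 CPM by night in hippocampus, and from 238 through 280 to 467 CPM and 155 through 198 to 285 CPM in frontal cortex. 8 of 16 hippocampal day libraries and 7 of 16 cortical ones lay above every night library. The fold change was 1.33 (log2 change 0.41, SE 0.06, adjusted p = 2.53e-06) and 1.43 (0.51, SE 0.09, adjusted p = 5.04e-05).

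Cirbp fell in day libraries. It ran from 13.2 through 21.0 to 24.1 CPM by day and from 26.6 through 34.2 to 46.4 CPM by night in hippocampus, with no overlap. In frontal cortex it ran from 13.5 through 19.5 to 26.4 CPM by day and from 26.1 through 34.4 to 45.7 CPM by night, so that 15 of 16 day libraries lay below every night library. The log2 change was −0.81 (SE 0.08, adjusted p = 2.67e-09) in hippocampus and −0.88 (SE 0.08, adjusted p = 7.70e-10) in frontal cortex. Rbm3, the other cold-inducible gene, ran from 22.9 through 32.8 to 39.5 CPM by day and from 34.0 through 38.9 to 43.3 CPM by night in hippocampus, and from 24.9 through 34.7 to 41.2 CPM and 34.3 through 38.9 to 42.6 CPM in frontal cortex. Its log2 change was −0.23 (SE 0.07, adjusted p = 0.00558) and −0.21 (SE 0.06, adjusted p = 0.00376). The night libraries of Rbm3 were close together, with SDs of 3.22 and 2.38 CPM, while the day libraries had SDs of 5.30 and 5.20 CPM and reached into the night range. In frontal cortex the call of Rbm3 was lost without the libraries of replicate number 3 (log2 change −0.17, adjusted p = 0.0578) and with scaling by library totals (−0.26, adjusted p = 0.0510).

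Libraries that do not overlap between day and night were rare among all genes. Day lay wholly above night in 0.419% of genes in hippocampus and 0.307% in frontal cortex, and wholly below in 0.122% and 0.0534%. Of the 10 members, 4 lay wholly above in hippocampus (Hspa8, Hsp90ab1, Dnajb1 and Hsph1) and 5 in frontal cortex (the same with Hsp90aa1). Cirbp lay wholly below in hippocampus, and no member did in frontal cortex.

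**Figure D2:**
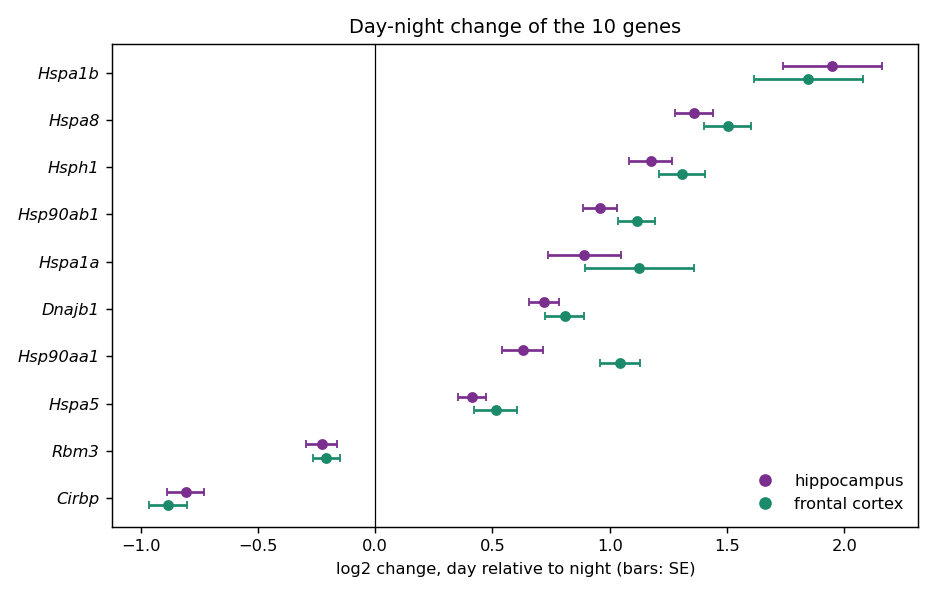
Log2 change of each gene, day relative to night (x axis), from the fit of 16 day and 16 night libraries in hippocampus (purple) and frontal cortex (green), with bars giving the SE. The 8 chaperone genes lie right of 0 and Rbm3 and Cirbp left of it, and Hsp90aa1 has the widest gap between regions relative to its SE, at 0.63 and 1.04.

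Markers of other cell types moved with the phase as well. The shares of all genes tested that rose and fell by day were 23.4% and 18.8% in hippocampus and 20.6% and 21.3% in frontal cortex. In hippocampus 9 of 9 border macrophage markers rose by day and 8 of 12 microglia markers did, while 9 of 9 choroid plexus, 9 of 10 oligodendrocyte, 6 of 8 astrocyte, 5 of 8 endothelial and 3 of 10 neuronal markers fell. The astrocyte marker Slc1a3 rose there (log2 change 0.40, edgeR adjusted p = 0.000129). In frontal cortex 7 of 9 border macrophage and 5 of 12 microglia markers rose, and 9 of 10 neuronal, 6 of 8 astrocyte, 6 of 10 oligodendrocyte and 1 of 8 endothelial markers fell. With library totals, 1 of 12 microglia markers rose in each region, and 5 and 4 of 9 border macrophage markers. Under that scaling 262 of all 15527 genes rose in hippocampus and 653 of 14975 in frontal cortex. The summed choroid plexus level was 1.74 to 917 CPM by day and 11.6 to 2942 CPM by night in hippocampus, and 6.82 to 455 CPM and 8.21 to 330 CPM in frontal cortex, where none of the 4 markers tested passed the test. Neutrophil and monocyte markers had 1 of 4 tested higher and 1 lower in hippocampus and 0 of 5 called in frontal cortex. The 7 list scores of these other cell types together held 84.2% of the variance of the phase label in hippocampus and 84.4% in frontal cortex. With the 7 scores in the fit every member kept its direction. In hippocampus the calls of Hspa1a, Hspa5, Cirbp and Rbm3 were then lost (adjusted p = 0.112, 0.194, 0.0989 and 0.351), at log2 changes of 1.26, 0.43, −0.64 and −0.28 against 0.89, 0.41, −0.81 and −0.23 without the scores. In frontal cortex that of Rbm3 was lost (−0.33 against −0.21, adjusted p = 0.0723). Hspa8 then had a log2 change of 1.11 in hippocampus (adjusted p = 0.000879) and 1.70 in frontal cortex (1.23e-06), while the cortical change of Hspa1a moved to 2.93 and that of Hspa1b to 3.34.

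The dissociation response, a list of 25 immediate early and inflammatory genes that cell isolation can raise, gave 8 of 24 genes tested higher and 2 lower by day in hippocampus, and 3 higher and 4 lower in frontal cortex. Over all genes tested, 23.4% were higher and 18.8% lower in hippocampus, and 20.6% and 21.3% in frontal cortex. The direction depended on the setting, with 0 higher and 3 lower in hippocampus under library totals, and in frontal cortex 6 higher and 3 lower under median-of-ratios size factors and 7 higher and 0 lower with the 7 scores. Among all genes, library totals gave 262 higher and 4031 lower of 15527 in hippocampus. Median-of-ratios size factors gave 3263 higher and 3035 lower of 14975 in frontal cortex. Its summed level was 476 to 639 CPM by day and 458 to 546 CPM by night in hippocampus, and 478 to 694 CPM and 433 to 588 CPM in frontal cortex. With the score of this list in the fit, all 10 members kept their calls in both regions.

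Hspa8 and Cirbp moved oppositely, and their ratio within a library is free of any scaling. The ratio of Hspa8 to Cirbp counts ran from 15.8 through a median of 21.7 to 47.0 in hippocampal day libraries and from 3.5 through 5.28 to 8.92 in night libraries. In frontal cortex it ran from 13.5 through 24.4 to 57.1 by day and from 3.25 through 4.69 to 9.47 by night. This ratio was chosen after the values were seen, and it separated all day from all night libraries in both regions, the nearest values being 13.5 and 9.47.

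**Figure D3:**
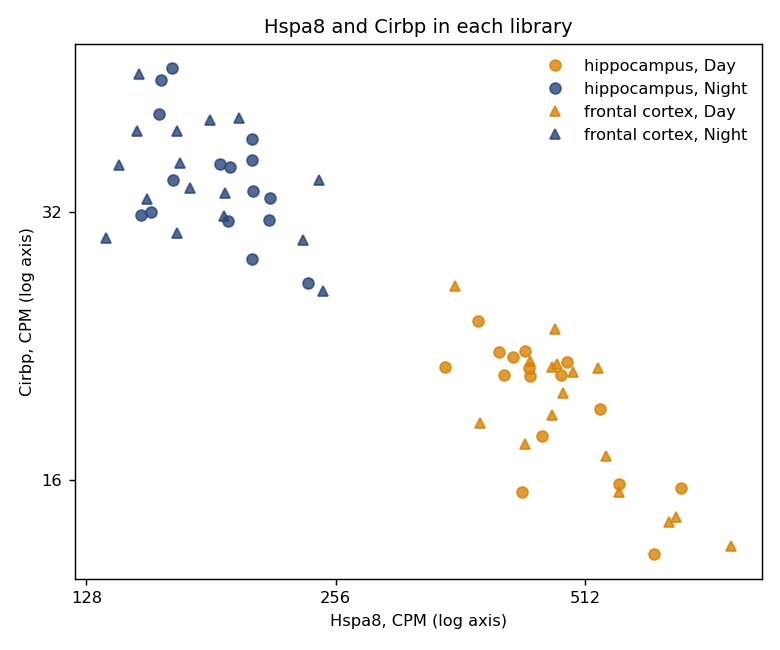
Level of Cirbp (y axis, CPM, log scale) against Hspa8 (x axis, CPM, log scale) in each of the 64 libraries, with circles for hippocampus, triangles for frontal cortex, orange for day and blue for night. Day libraries lie at high Hspa8 and low Cirbp and night libraries at the opposite corner, with Hspa8 at least 346 CPM by day and at most 247 CPM by night.

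Per kilobase of exon, which allows levels to be compared between genes, the order of the genes differed between phases. Hspa8, Hsp90aa1 and the inducible pair share windows with other genes, while Hspa5 and Hsp90ab1 share 0.0%. The effect of the shared windows on this order was not tested. In hippocampal night libraries Hsp90ab1 stood first (62.0 ± 4.09 CPM per kilobase, SD, n = 16), followed by Hspa5 (51.4 ± 5.25) and Hspa8 (43.3 ± 6.14). By day Hsp90ab1 (118 ± 22.8) and Hspa8 (109 ± 20.3) stood above Hspa5 (67.0 ± 9.58), and Hsp90ab1 and Hspa8 differed by less than their SDs. Cirbp came next by night (13.5 ± 2.11), above Hsp90aa1 (10.8 ± 1.57), while by day (7.56 ± 1.20) it was below Hsp90aa1 (16.3 ± 3.41) and Dnajb1 (9.47 ± 1.40). Hsph1 was lower in both phases, at 2.13 ± 0.41 by night and 4.71 ± 0.85 by day, and the inducible pair was last, at 0.916 ± 0.457 (Hspa1b) and 0.586 ± 0.198 (Hspa1a) by day. In frontal cortex Hspa8 and Hspa5 were at 41.6 ± 8.31 and 48.8 ± 9.78 by night, which differed by less than their SDs, and at 119 ± 24.8 and 70.2 ± 13.6 by day.

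Across the 16 groups of region, phase and condition, the 8 lowest group means of each chaperone gene were the 8 night groups, and the 8 lowest of Cirbp and Rbm3 were the 8 day groups. Hspa8 ran from 166 ± 26.2 CPM in cortical Night Ctr0 to 580 ± 156 CPM in cortical Day Soci (SD, n = 4). Cirbp ran the other way, from 17.1 ± 3.90 CPM in cortical Day Soci to 40.8 ± 3.90 CPM in cortical Night Ctr0. In the order of group means, neighbours were apart by more than both SDs only at the step from night to day groups, and only for Hspa8, Hsp90ab1, Dnajb1, Hsph1 and Cirbp. At that step Hspa8 went from 198 ± 35.8 CPM (hippocampal Night Cogn) to 436 ± 80.9 CPM (cortical Day Ctr0). The other neighbours of these genes, and all neighbours of Hspa1a, Hspa1b, Hspa5, Hsp90aa1 and Rbm3, did not differ beyond their SDs. Cortical Night Ctr0 was the lowest group for 7 of the 8 chaperone genes (Hspa5 was lowest in cortical Night Ctr1), and the highest group was cortical Day Soci for 5 of them and hippocampal Day Cogn for the other 3.

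The next comparison asked whether the 4 conditions differed, with both phases averaged. No member passed the test in either region. An unadjusted p below 0.05 from edgeR was reached by 1 member in hippocampus (Hsph1) and by 3 in frontal cortex, led by Cirbp. Their adjusted p-values from edgeR were 0.668 and 0.72. Over all genes the share called by edgeR was 0.0% in both regions, and 1090 of 16826 and 1094 of 16238 genes had an unadjusted p below 0.05. Over the 6 pairs of conditions no member passed either, while 0.0178% of genes passed in at least 1 pair in hippocampus and 0.0% in frontal cortex. The differences between pairs ran from −0.38 to 0.31 on the log2 scale in hippocampus and from −0.61 to 0.73 in frontal cortex. Cogn against Ctr0 in frontal cortex had 7 members at an unadjusted edgeR p below 0.05, with Cirbp lowest, and no adjusted p-value under 0.570. Of all genes, 1371 of 16238 had an unadjusted p below 0.05 in that pair. Soci against Ctr0 in frontal cortex had 5 such members, and 1735 of 16238 genes. With scaling by library totals, 4 members passed the test of the conditions in hippocampus, where that scaling called 23.0% of all genes, and 6 passed between Soci and Ctr1, where it called 57.7%. DESeq2 called no member in these tests.

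Within each condition, day was then compared with night over 4 against 4 libraries. Of the 80 tests over 10 genes, 4 conditions and 2 regions, 59 passed an adjusted p of 0.05, with 51 higher by day and 8 lower. Hspa8, Hsp90ab1, Dnajb1, Hsph1 and Cirbp passed in all 4 conditions in both regions. Rbm3 passed in none, with log2 changes of −0.31 to −0.11. Among all genes, 8.08% passed in Soci, 5.32% in Cogn, 13.2% in Ctr0 and 12.5% in Ctr1 in hippocampus, and 6.51%, 5.86%, 5.47% and 4.35% in frontal cortex.

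**Figure D4:**
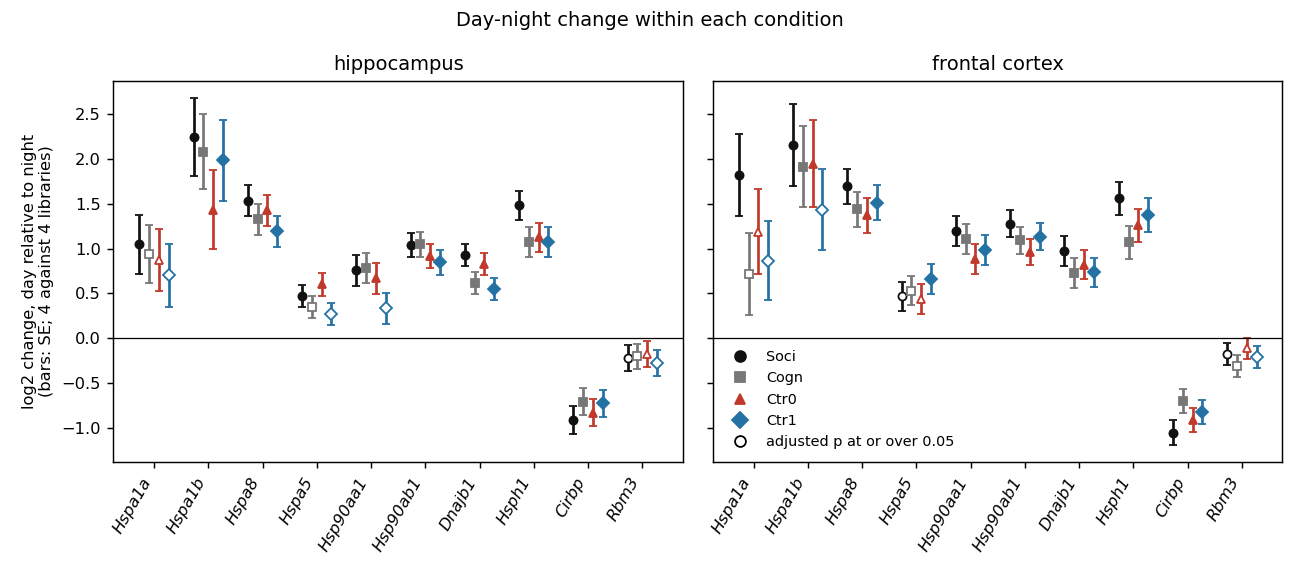
Log2 change of each gene, day relative to night (y axis), within each condition in hippocampus (left) and frontal cortex (right), from 4 day and 4 night libraries, with bars giving the SE and open markers an adjusted p at or over 0.05. Hspa8 lies between 1.19 and 1.70 in all 8 cases and Cirbp between −1.05 and −0.70, while Rbm3 has open markers throughout.

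Hspa8 changed by 1.19 (Ctr1) to 1.53 (Soci) on the log2 scale in hippocampus and by 1.37 (Ctr0) to 1.70 (Soci) in frontal cortex. Cirbp changed by −0.91 (Soci) to −0.71 (Cogn) and by −1.05 (Soci) to −0.70 (Cogn). Hspa1b changed by 1.43 to 2.25 in hippocampus, where it passed in all 4 conditions, and by 1.43 to 2.16 in frontal cortex, where it passed in 3. Hspa1a passed in 1 condition of each region and Hspa5 in 2 and 1. The change was largest in Soci for 5 of the 8 chaperone genes in hippocampus and for 7 of them in frontal cortex. Whether the change differed among conditions was tested directly, and no member passed in either region (lowest unadjusted p = 0.106 for Dnajb1 in hippocampus and 0.302 for Hsph1 in frontal cortex). That test called 0.0% of all genes in hippocampus and 0.00616% in frontal cortex, and 695 and 603 genes had an unadjusted p below 0.05. On simulated counts the same test recovered 56 of 200 changed genes in frontal cortex, so it can miss changes of this kind.

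The regions were compared over all 64 libraries, which the fit treated as independent. The labels do not say whether both regions of a label came from the same animals, so the p-values ignore any such pairing. Averaged over day and night, Hsp90aa1 was 1.14-fold higher in hippocampus (log2 difference 0.19, SE 0.06, adjusted p = 0.0264) and Hspa1a 1.33-fold (0.41, SE 0.14, adjusted p = 0.0293), against 16.6% of all genes called. Both calls were lost with scaling by library totals (adjusted p = 0.387 and 0.0862), with the 7 other cell type scores, and without the libraries of replicate numbers 2, 3 or 4. That of Hsp90aa1 was also lost without replicate 1 (adjusted p = 0.0941). The other 8 genes differed by −0.03 to 0.12 on the log2 scale, with adjusted p-values of at least 0.253. The day-night change was unequal between the regions for Hsp90aa1, by −0.45 (SE 0.12, adjusted p = 0.0444), a smaller rise in hippocampus, where 1.19% of all genes were called. This call was lost under 9 of the alternatives, with adjusted p = 0.0513 under size factors by the median of ratios and 0.556 without replicate 2. The other 9 genes had differences of −0.28 to 0.06, with adjusted p-values of at least 0.557.

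Among libraries of one group the genes also varied together. In each region 8 pairs were examined after subtracting the group means (32 libraries, 16 relations, permutation of libraries within groups). Hspa8 and Hsp90aa1 rose and fell together, with r = 0.66 (rho = 0.57, adjusted p = 0.00794 and 0.0220) in hippocampus and r = 0.75 (rho = 0.76, adjusted p = 0.000160 and 0.000320) in frontal cortex. Cirbp and Rbm3 had r = 0.67 (rho = 0.55, adjusted p = 0.00794 and 0.0220) in hippocampus and r = 0.59 (rho = 0.41, adjusted p = 0.0501 and 0.148) in frontal cortex. Hspa1a and Hspa1b had r = 0.64 (rho = 0.68, adjusted p = 0.00720 and 0.00192) in frontal cortex and r = 0.56 (rho = 0.42, adjusted p = 0.0533 and 0.142) in hippocampus. The part of sequence shared by the pair in this relation was not tested. Hspa8 and Hsph1 had r = 0.50 (rho = 0.37, adjusted p = 0.0325 and 0.148) in hippocampus and r = 0.27 (rho = 0.14, adjusted p = 0.182 and 0.559) in frontal cortex. Without the 2 libraries farthest from the median of the first gene, r was 0.48 and 0.73 for Hspa8 with Hsp90aa1, 0.56 and 0.44 for Cirbp with Rbm3, 0.52 and 0.52 for the Hspa1 pair, and 0.32 and 0.23 for Hspa8 with Hsph1, in hippocampus and frontal cortex. Of the 16 relations 7 passed, and 4, 3, 6 and 1 did so when replicate number 1, 2, 3 or 4 was left out.

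Hspa8 and Cirbp were inversely related within groups, with r = −0.63 in hippocampus (rho = −0.55, adjusted p = 0.00794 and 0.0220, r = −0.47 without 2 libraries) and r = −0.55 in frontal cortex (rho = −0.54, adjusted p = 0.0103 and 0.0220, r = −0.51 without 2 libraries). This relation turned with the scaling, since library totals gave r = 0.14 and 0.05 (adjusted p = 0.548 and 0.840). The other 3 pairs did not pass the adjustment in either region. Hspa1b and Dnajb1 had r = 0.47 (rho = 0.14, adjusted p = 0.137 and 0.561) in hippocampus, which fell to 0.06 without 2 libraries, and r = 0.30 (rho = 0.18, adjusted p = 0.161 and 0.464, r = 0.23 without 2 libraries) in frontal cortex. The dissociation response score had r = 0.38 and 0.41 with Hspa8 (rho = 0.27 and 0.34, adjusted p = 0.108 and 0.0809 for r, 0.268 and 0.174 for rho, r = 0.21 and 0.30 without 2 libraries) and r = 0.35 and 0.10 with Hspa1b (rho = 0.19 and 0.07, adjusted p = 0.161 and 0.547 for r, 0.464 and 0.714 for rho, r = 0.11 and 0.14 without 2 libraries), in hippocampus and frontal cortex.

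Hippocampal and cortical libraries of the same phase, condition and replicate number were compared after subtracting the group means. No member passed the adjustment. Over 32 such pairs, r was above 0 for all 10 genes and ran from 0.03 (Hsp90ab1) to 0.31 (Hspa8), with adjusted p-values of at least 0.929 over the 10 genes (rho from −0.14 to 0.38, adjusted p of at least 0.718). Without the 2 libraries farthest from the median, r ran from −0.20 (Hspa5) to 0.49 (Hsph1). This comparison was chosen after the values were seen.

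Other genes of the pathways were read from lists. Their counts stand beside 23.4% of all genes tested that rose and 18.8% that fell in hippocampus, and 20.6% and 21.3% in frontal cortex. Of 32 HSF1-linked cytosolic chaperone genes, 18 rose by day, 5 fell and 9 did not pass in hippocampus, and 22 rose, 1 fell and 9 did not pass in frontal cortex. Their median log2 change was 0.18 and 0.25, against 0.02 and −0.02 over all genes tested. With library totals 11 rose and 8 fell in hippocampus (median 0.02, against −0.14 over all genes) and 15 rose and 3 fell in frontal cortex. Under that scaling 262 of all 15527 genes tested rose and 4031 fell in hippocampus. In frontal cortex 653 of 14975 rose and 3412 fell. With the 7 scores 5 rose and 0 fell in hippocampus at a median of 0.18, and 21 rose and 0 fell in frontal cortex at a median of 0.51. The medians over all genes were then 0.02 and 0.05, and the shares of all genes called with the scores are not given here. The largest rises in hippocampus were those of Dnaja1 (an HSP40 co-chaperone, log2 change 0.88, SE 0.07, adjusted p = 4.57e-11), Stip1 (which links HSP70 to HSP90, 0.80, SE 0.07, 4.55e-10) and Ahsa2 (an activator of the HSP90 ATPase, 0.78, SE 0.07, 2.33e-09). In frontal cortex they were those of Stip1 (0.98, SE 0.07, adjusted p = 1.99e-11), Hspb1 (the small heat shock protein HSP27, 0.88, SE 0.20, 0.000535) and Dnaja1 (0.86, SE 0.08, 6.90e-10). The falls named by the rule were Stub1, a ubiquitin ligase of the chaperone system, in hippocampus (−0.15, SE 0.04, adjusted p = 0.00383) and Dnajb5 in frontal cortex (−0.26, SE 0.09, 0.0137), whose change turned to 0.46 with the 7 other cell type scores (adjusted p = 0.00527). The other 4 falls in hippocampus, named after their values were seen, were Cryab (−1.30), Hspb8 (−0.76), Hspb6 (−0.50) and Hspa2 (−0.46), of which Cryab, Hspb6 and Hspb8 encode small heat shock proteins. All 4 had an average log2 CPM under 2. The oligodendrocyte and astrocyte markers fell in the same libraries, and a link between the falls was not tested. In frontal cortex, where 6 of 8 astrocyte and 6 of 10 oligodendrocyte markers fell, none of these 4 genes passed. Their edgeR adjusted p-values there were 0.0588 (Cryab), 0.590 (Hspb8), 0.267 (Hspb6) and 0.807 (Hspa2). Hsf1 itself changed by 0.13 and 0.07 on the log2 scale and did not pass (adjusted p = 0.0635 and 0.266).

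**Figure D5:**
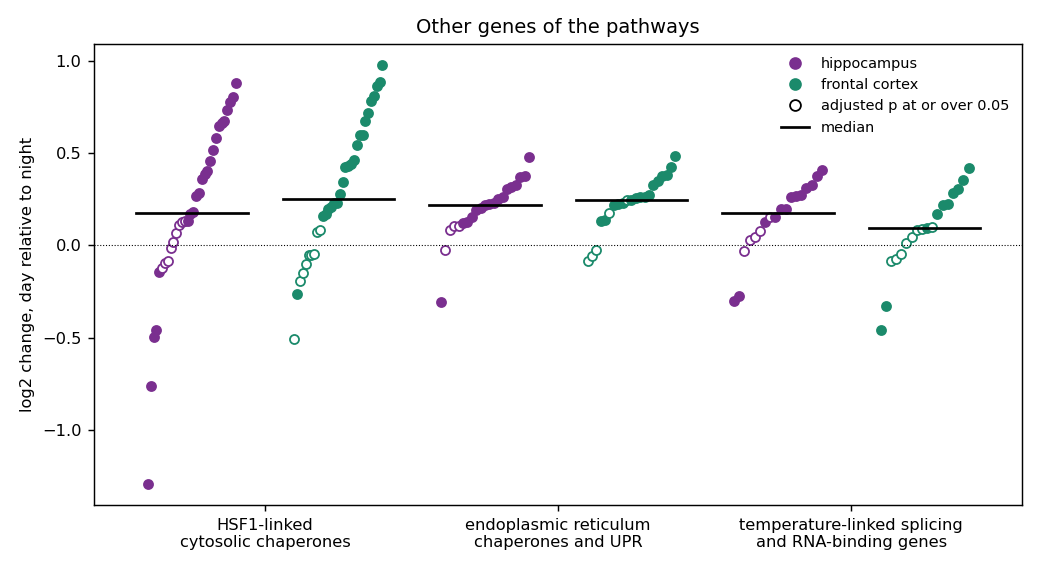
Log2 change, day relative to night (y axis), of each tested gene of 3 pathway lists in hippocampus (purple) and frontal cortex (green), with filled points for an adjusted p under 0.05, open points otherwise and a black line at the median. The HSF1-linked list has the widest spread, from −1.30 to 0.98, and the medians of the 6 columns lie between 0.09 and 0.25.

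Of 21 genes of endoplasmic reticulum chaperones and the unfolded protein response, 16 rose in each region, with 1 fall in hippocampus and 0 in frontal cortex and medians of 0.22 and 0.25. Dnajb9 (0.48, SE 0.06), Hsp90b1 (GRP94, 0.38, SE 0.05) and Herpud1 (0.37, SE 0.04) led in hippocampus, and Creld2 (0.48, SE 0.08), Hsp90b1 (0.43, SE 0.07) and Pdia6 (0.38, SE 0.07) in frontal cortex, with adjusted p-values from edgeR of at most 0.000161. Sil1, the nucleotide exchange factor of BiP, fell in hippocampus (−0.31, SE 0.07, adjusted p = 0.000301). Ddit3, which encodes the stress factor CHOP, changed by 0.08 and −0.09 and did not pass (adjusted p = 0.351 and 0.366). With scaling by library totals, 1 rise remained in hippocampus and 6 in frontal cortex, where 262 of 15527 and 653 of 14975 of all genes rose.

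Of 18 temperature-linked splicing and RNA-binding genes, 11 rose and 2 fell in hippocampus and 8 rose and 2 fell in frontal cortex, with medians of 0.17 and 0.09. The CDC-like kinases and SR proteins that control splicing led the rises, with Clk1 (0.41, SE 0.06), Srsf7 (0.37, SE 0.05) and Clk4 (0.33, SE 0.05) in hippocampus and Srsf7 (0.42, SE 0.06), Clk1 (0.35, SE 0.05) and the RNA-binding gene Rbm14 (0.30, SE 0.05) in frontal cortex (adjusted p from edgeR at most 9.07e-06). Srsf5, another SR protein gene, fell by 0.27 and 0.33 on the log2 scale (adjusted p = 0.000413 and 9.07e-06). With scaling by library totals, 1 rise remained in hippocampus and 2 in frontal cortex, where 262 of 15527 and 653 of 14975 of all genes rose.

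The genes most like Hspa8 and Cirbp were sought by the Pearson r of the 16 group means of log2 CPM among 6388 genes whose log2 CPM averaged 4 or more. For Hspa8 they were St13 (r = 0.992), Hsp90ab1 (0.991), P4ha1 (0.990), Dnajb1 (0.988) and Peg10 (0.984), so that 2 of the 5 were members and St13, which encodes the HSP70-interacting protein Hip, belonged to the HSF1-linked list. For Cirbp they were Sema4g (r = 0.971), Ppp4r1l-ps (0.960), Luc7l2 (0.960), Rasa4 (0.958) and Abcc1 (0.955). The group means share scaling and phase, and these values are a description with no test.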

How the data were processed

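Total RNA was depleted of ribosomal RNA, and single-end reads were mapped by the authors to GRCm38.p5 with STAR 2.7.3a and assigned to genes with featureCounts of Subread 2.0.0, per the labels. The deposited values are raw counts per gene in 64 libraries. Whether strand was used in counting, and how reads matching several places were handled, is not given in the sources used here.

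The members and gene lists were chosen with earlier results of these data known. Day was compared with night per region (16 against 16 libraries), conditions and their interaction with phase in a fit of 8 phase and condition means per region, and regions in a fit of 4 region and phase means over all libraries. The test was edgeR 4.0.16 in R 4.3.3 (quasi-likelihood F test, TMM, filterByExpr), with Benjamini-Hochberg adjustment over all genes and a threshold of 0.05. A positive log2 change is higher in day or in hippocampus, and dividing its absolute value by the square root of the F statistic gave the SE. CPM used TMM over all 64 libraries, and log2 CPM a prior count of 2. List scores are means of centred log2 CPM. On simulated counts with 200 genes changed, the day-night fit recovered 200 of 200 in each region, the test of conditions in hippocampus 200, the region test 200, its interaction with phase 199, and the interaction of phase and condition in frontal cortex 56. Counts were drawn independently with a fixed spread, and all changed genes had higher levels than Hspa1a and Hspa1b have on average. The same fold change was planted in every test. Its median absolute log2 estimate in the day-night fits was 0.988 in hippocampus and 1.017 in frontal cortex. Recovery of smaller changes was not tested.

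All 10 members are named, and Cry1, Per2, Nr1d1 and Arntl to show how clock genes differed between the phase labels. Of each pathway list the genes with average log2 CPM of 2 or more and the 3 strongest called changes in each direction are named, and for Hspa8 and Cirbp the 5 genes with the highest r over the 16 group means. One gene that this rule names is not reported here. Alternatives were library totals without further scaling, median-of-ratios size factors, genes over 1% of counts left out, no count filter, DESeq2 1.42.0, the replicate number as a block, scores of 7 other cell types or of the dissociation response, condition as a covariate, the libraries of replicate number 4 alone, and leaving out each replicate number. Floors cover counting error only.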

Additional observations from a re-analysis of the deposited data

Results flagged for a closer look

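In each group of 4 libraries the highest or lowest CPM of each member was compared with the others by Dixon's ratio. Of the 160 groups, 13 held a library that stood apart, where chance would give about 8. Hspa8 stood apart in replicate 3 of Night Soci in both regions, at 203 CPM against 149 to 158 CPM in hippocampus and at 245 CPM against 152 to 166 CPM in frontal cortex. Hsph1 stood apart in replicate 4 of Day Cogn in both regions, at 47.3 CPM against 34.5 to 35.6 CPM in hippocampus and 48.4 CPM against 27.02 to 30.4 CPM in frontal cortex. It also stood apart in hippocampal Night Ctr1 replicate 3, at 19.9 CPM against 13.2 to 14 CPM.

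Cirbp was low in replicate 3 of Night Cogn in both regions, at 26.6 CPM against 31.2 to 32.01 CPM in hippocampus and 26.1 CPM against 29.7 to 30.3 CPM in frontal cortex. In hippocampal Day Soci replicate 2 Cirbp was low, at 15.7 CPM against 20.9 to 21.4 CPM, and Hsp90aa1 was high, at 83.6 CPM against 52.9 to 57.8 CPM. In hippocampal Day Ctr0 replicate 4 Hspa1b was high, at 3.25 CPM (40 counts) against 1.51 to 1.72 CPM. In cortical Day Ctr0 replicate 4 Hspa1a was low, at 0.608 CPM (10 counts) against 1.30 to 1.40 CPM. Dnajb1 in cortical Night Ctr1 replicate 3 was 23.6 CPM against 16.5 to 16.9 CPM, and Hspa5 in hippocampal Night Ctr1 replicate 4 was 219 CPM against 225 to 226 CPM, a gap that is large only beside the narrow spread of that group.

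The day-night change of Hsp90aa1 differed between the regions in the test of the difference itself, by −0.45 on the log2 scale, with the smaller rise in hippocampus (adjusted p = 0.0444, edgeR). The call was lost under 9 of the alternatives, among them median-of-ratios size factors and no count filter.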

How the results depend on the processing

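The day-night change of the 10 members kept its direction in both regions under all 14 alternatives, and 259 of the 280 values kept their side of the threshold. Of the 21 calls lost, 14 were lost with the libraries of replicate number 4 alone (4 against 4 libraries), which left 6 of 10 members called in hippocampus and 0 in frontal cortex, and 5 with the 7 other cell type scores, which left 6 in hippocampus. The shares of all genes called in these fits are not given here. Losses particular to the members therefore cannot be told from losses among all genes. With library totals alone the median of all genes moved from 0.02 to −0.14 (log2) in hippocampus and from −0.02 to −0.09 in frontal cortex, and rises made up 6.10% and 16.1% of all calls, against 55.5% and 49.2% as reported. The members kept their calls with it except Rbm3 in frontal cortex, whose call was also lost without replicate number 3.

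With library totals, 4 members passed the test of the conditions and 6 tests of pairs of conditions passed in hippocampus, against 0 as reported, and all genes called were 23.0% for the conditions and 57.7% for Soci against Ctr1. Within conditions the 7 scores left 34 of 59 calls of the members, and the share of all genes called in that fit is not given here. The 2 members called between regions became 0 with library totals, the 7 scores and replicate number 4 alone, and 0 to 1 with a replicate number left out. The 1 member whose change differed between regions became 0 with library totals, median-of-ratios size factors, genes over 1% left out, no count filter, the 7 scores and replicate number 4 alone, and 0 to 1 with a replicate number left out. The 23 calls of the HSF1-linked list in hippocampus became 5 with the 7 scores, at a median of 0.18 in both fits. The 17 and 16 calls of the endoplasmic reticulum list became 2 and 6 with library totals, and the 17 became 0 with the 7 scores. The 13 and 10 calls of the splicing list became 3 and 4 with library totals and 1 and 5 with the 7 scores. The 10 hippocampal calls of the dissociation list became 3 with library totals, 0 with the 7 scores and 4 to 12 with a replicate number left out, and the 7 cortical calls 4 to 8. The 7 relations within groups past the threshold became 1 to 6 with a replicate number left out, and with library totals 3 relations turned sign, Hspa8 with Cirbp (r = 0.14 and 0.053) and the dissociation score with Hspa1b in frontal cortex (r = −0.12). The cause was not tested.

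The replicate number as a block left all 20 day-night calls of the members. Day and night libraries of one condition and number had correlations of their deviations from −0.59 to 0.38 in hippocampus (4 of 16 pairs over 0.1) and from −0.46 to 0.74 in frontal cortex (10 of 16). Libraries of 2 conditions of one phase and number ran from −0.52 to 0.85 (26 of 48 over 0.1) and from −0.63 to 0.66 (23 of 48). Hippocampal and cortical libraries of one label ran from −0.74 to 0.78 (12 of 32). Whether the replicate number marks libraries that belong together was not tested. Depth limits Hspa1a and Hspa1b, at 4 and 5 counts in their lowest libraries.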
